A study of Mus musculus with 39 samples.

Results

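GFP-positive photoreceptors that lack the transcription factor Nrl were compared between P6 and P2, postnatal stages 4 days apart. The comparison used the 4 arrays of Nrl-ko-Gfp P6 (ko P6) and the 4 of Nrl-ko-Gfp P2 (ko P2), 8 of the 39 arrays of the series, chosen by their titles, and covered all 18193 genes that could be named. The series followed GFP-tagged photoreceptors of ko and wt mice through E16, P2, P6, P10 and 4 weeks, on Affymetrix mouse whole-genome arrays. Both groups carried a GFP transgene driven by the Nrl promoter, came from Nrl-ko animals mated with wt-Gfp animals, and were sorted by flow cytometry. Their RNA was amplified with the NuGEN kit. The wt-Gfp groups carried the same transgene on a background with intact Nrl. Per the series description, the GFP of ko mice labels transformed S-cones, while that of wt mice labels rods and their precursors, so the cells are those in which the Nrl promoter was active and not native cones. The labels name neither the age range within a stage nor the number of animals behind an array.

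Nrl is a leucine zipper transcription factor needed for rods to form; without it, the cells that would have become rods take on features of cones that use the short-wavelength opsin Opn1sw. After they leave the cell cycle, photoreceptors build a ribbon synapse at one end and a ciliary outer segment at the other. In the outer segment, light-activated opsin switches on transducin, transducin releases the phosphodiesterase Pde6 from its inhibitory subunit, and the fall in cGMP closes cation channels. Arrestins, recoverin, the Rgs9 complex and the guanylate cyclase activating proteins end the response.

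The 8 arrays matched their label. Nrl had log2 signals of 6.03, 6.21, 6.11 and 6.48 in ko P6 and 5.84, 5.68, 6.16 and 6.36 in ko P2, with an absent detection call at both stages, against 11.15 to 12.07 in wt P6 and 9.77 to 11.56 in wt P2. Where the probes lie relative to the deletion is not given in the sources used here. Of 10 measured genes of cone phototransduction, 8 had a present call at ko P6 and 7 at ko P2. Opn1sw averaged 12.45 ± 0.51 in ko P6 and 11.51 ± 0.41 in ko P2 (SD, n = 4 each). The ko P6 replicate 4 array stood apart: its correlation with the other ko P6 arrays went down to 0.932, against 0.995 for the closest ko P6 pair, and its values had the lowest spread over probe sets of the 8 arrays, with an SD of 1.40. ko P2 replicate 4 had the next lowest spread, with an SD of 1.41. The counts of called genes, over all genes and by list, are therefore also given without ko P6 replicate 4 where that array changes them. Among the ko arrays that only lend their spread to the fit, the one labelled ko 4 weeks replicate 2 went against its label: Nrl read 9.05 there and no more than 5.77 on the other ko 4 weeks arrays. RNA integrity, read as the 3′ minus 5′ signal of Actb, was 1.80 ± 0.37 in ko P6 and 1.88 ± 0.21 in ko P2 (exact two-sided permutation test, p = 0.771, smallest possible 0.0286).

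Between ko P6 and ko P2, 120 of 18193 genes differed at a Benjamini-Hochberg adjusted p under 0.05 in limma, which is 0.66% of the genes tested. Of these, 96 rose (0.528%) and 24 fell (0.132%). A change of at least 2-fold was seen in 73 of the risers and 12 of the fallers. The middle of all genes was shifted by -0.07 on the log2 scale. The 4 arrays of each group did not overlap for 87 of the 96 risers and 23 of the 24 fallers. Such a separation was seen in 12.0% of all genes, upward in 2.83% and downward in 9.16%. The genes were called on these same arrays, so their separation describes them and is no further support. No overlap was also a condition for naming the largest rises and falls. ko P6 replicate 4 was the lowest of the ko P6 arrays in 90 of the 96 risers. Without it, 255 genes rose (1.4%) and 25 fell (0.137%), and 94 of the 96 risers and 17 of the 24 fallers were called again. The counts also depended on the other 7 arrays, and leaving out any 1 of them gave 45 to 77 risers and 9 to 19 fallers. When the array labelled ko 4 weeks replicate 2 was left out of the fit, 117 genes rose (0.643%) and 58 fell (0.319%), and all 120 genes were called again. Of the 120 genes, 42 risers and 7 fallers kept their call without any single array. With only the 8 arrays in the fit, 82 of 18193 genes rose and 104 fell (0.572%), so that fallers outnumbered risers. In that fit 56 of the 96 risers and 9 of the 24 fallers lost their call. In these sorted but bulk samples, a change in the share of cells that carry a transcript and a change in its amount per cell cannot be told apart.

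**Figure D1:**
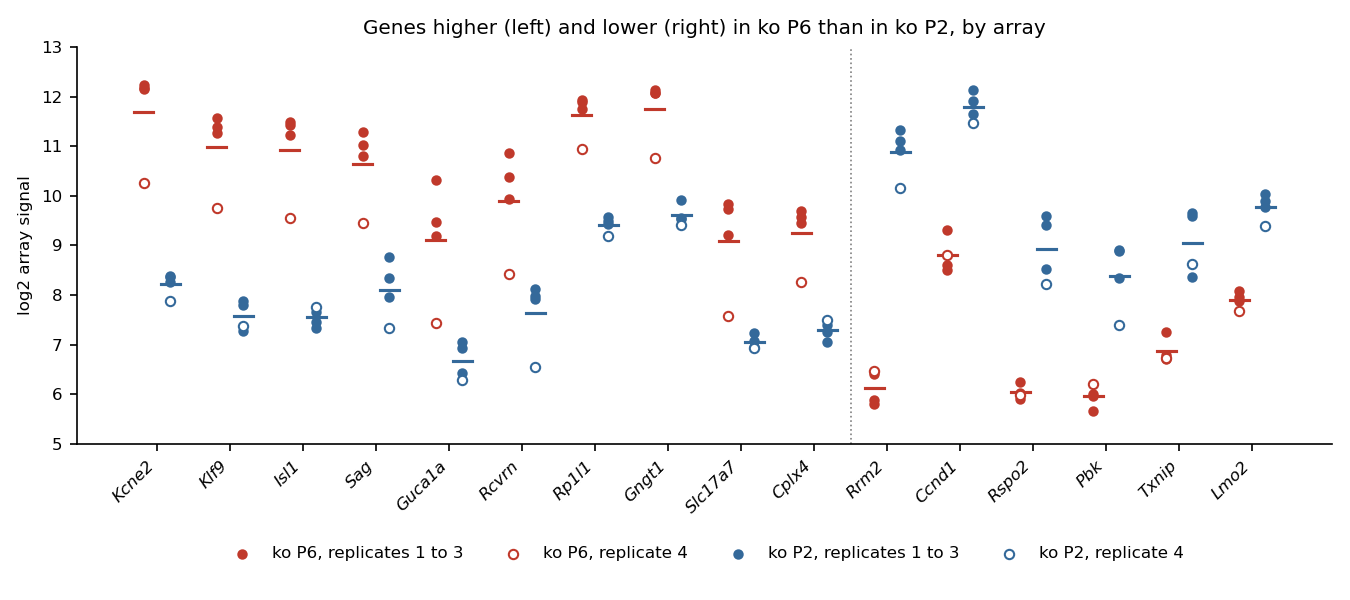
The vertical axis is the log2 array signal, and each gene has its 4 ko P6 arrays on the left and its 4 ko P2 arrays on the right, with a bar at each mean and an open point for replicate 4. In the 10 genes on the left side of the plot all ko P6 arrays lie above all ko P2 arrays, and in the 6 genes on the right side all lie below, while ko P6 replicate 4 is the lowest ko P6 array in each of the 10 risers. The genes are among the largest rises and falls, for which no overlap was a condition of being named.

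Of 10 measured rod phototransduction genes, 3 rose and 0 fell, where 0.528% of all genes rose (median difference 0.01, against -0.07 over all genes). Sag, the arrestin of rods, which is also made in cones of the mouse, had log2 signals of 11.28, 10.81, 11.02 and 9.44 in ko P6 and 8.77, 8.34, 7.96 and 7.33 in ko P2. Every ko P6 array was above every ko P2 array, and the rise was 5.80-fold from an absent call at ko P2 (limma, adjusted p = 0.0016). Gngt1, the gamma subunit of rod transducin, lay at 12.07, 12.07, 12.13 and 10.76 in ko P6 and at 9.54, 9.56, 9.92 and 9.41 in ko P2. It rose 4.43-fold, and 2 further probe sets rose with it by 2.09 and 2.10 log2 units, while the dimmest, called absent at both stages, had a difference of -0.09. Pde6g, the inhibitory subunit of the rod phosphodiesterase, rose 4.20-fold, with 11.27, 10.70, 10.99 and 9.28 in ko P6 against 9.08, 8.71, 8.38 and 7.79 in ko P2. With only the 8 arrays in the fit, Sag and Gngt1 kept their calls and Pde6g did not (adjusted p = 0.0714). The other 7 rod genes did not pass the test. Gnat1, the alpha subunit of rod transducin, averaged 7.83 ± 0.16 in ko P6 and 7.98 ± 0.10 in ko P2 (SD, n = 4 each), and Pde6b, a catalytic subunit of the rod enzyme, averaged 6.94 ± 0.16 in ko P6 and 6.92 ± 0.11 in ko P2.

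Of 12 measured shared and recovery genes, 4 rose and 0 fell, where 0.528% of all genes rose (median 0.72). Guca1a, which encodes a calcium sensor that activates guanylate cyclase, had 10.31, 9.19, 9.48 and 7.43 in ko P6 and 7.05, 6.92, 6.42 and 6.27 in ko P2. The groups did not overlap, although ko P6 replicate 4 was only slightly above the highest ko P2 array. The rise was 5.39-fold from an absent call (limma, adjusted p = 0.000875). Rcvrn encodes recoverin, the calcium sensor that restrains opsin kinase, and had 10.85, 9.94, 10.37 and 8.41 in ko P6 and 8.11, 7.99, 7.91 and 6.54 in ko P2, a rise of 4.78-fold from an absent call. Rgs9bp, which anchors the complex that switches transducin off, rose 3.15-fold from an absent call. Pdc, encoding phosducin, which binds the transducin beta and gamma subunits, rose 1.79-fold. The call of Rgs9bp ended without any 1 of 5 arrays (adjusted p up to 0.139, without ko P6 replicate 1), and that of Pdc without any 1 of 7 (up to 0.149, without ko P6 replicate 3) and with the replicate number as a block (0.053). With only the 8 arrays in the fit, where 82 of 18193 genes rose, Pdc was the 1 gene of the list that kept its call (0.00912). Guca1a (0.0773), Rcvrn (0.0953) and Rgs9bp (0.0527) lost theirs. Without ko P6 replicate 4, where 1.4% of all genes rose, Aipl1, a chaperone of Pde6, also passed the test. Its difference was 2.01 (adjusted p = 0.00229), against 1.54 and 0.0673 with all arrays.

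None of the 10 measured cone phototransduction genes passed the test, where 0.528% of all genes rose. Of the 10, 8 had positive differences, against 6405 of all 18193 genes. Many of all genes had no present call, and the median difference was 0.04 over the 7740 with one at ko P2 or ko P6. The median of the 10 was 0.70, and 1.08 without ko P6 replicate 4. Gnat2, the alpha subunit of cone transducin, lay at 12.25, 12.09, 12.36 and 11.37 in ko P6 and at 11.19, 11.16, 11.20 and 10.23 in ko P2. Its arrays did not overlap, the difference was 1.07 (SE 0.38), and the adjusted p in limma was 0.291. Opn1sw had 12.63, 12.76, 12.72 and 11.68 in ko P6 and 11.80, 11.87, 11.39 and 10.98 in ko P2, so that only ko P6 replicate 4 lay within the ko P2 range. The difference of Opn1sw was 0.94 (SE 0.51, adjusted p = 0.573), whereas a second, dimmer probe set of the same gene rose by 1.82 (adjusted p = 0.0174 over all probe sets). Arr3, cone arrestin, averaged 9.09 ± 1.08 in ko P6 and 8.25 ± 0.20 in ko P2, and passed the test when ko P6 replicate 4, at 7.52, was left out (difference 1.37, adjusted p = 0.0193). It was the 1 cone gene of the list to do so, where 1.4% of all genes rose. Pde6c, the catalytic subunit of the cone phosphodiesterase, and Pde6h, its inhibitory subunit, had differences of 0.32 (SE 0.42) and 0.73 (SE 0.37). Opn1mw, the middle-wavelength opsin, was called absent at both stages, at 6.06 ± 0.05 in ko P6 and 6.13 ± 0.08 in ko P2. The mean of the 10 genes ran from 9.15 to 10.19 over the ko P6 arrays and from 8.94 to 9.53 over the ko P2 arrays.

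**Figure D2:**
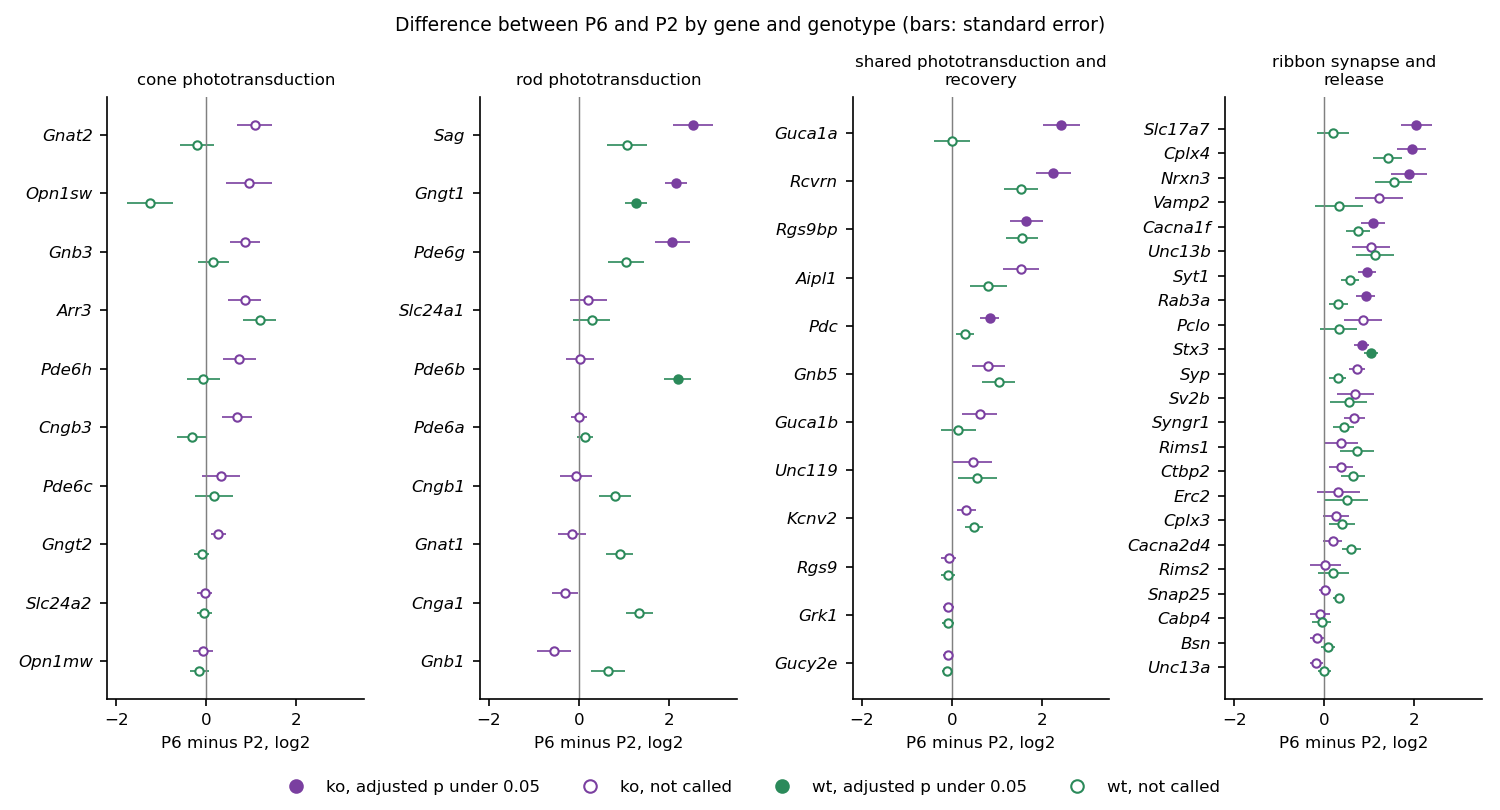
Each panel shows 1 gene list, with the P6 minus P2 difference (log2) on the horizontal axis, ko above wt for each gene, bars for the standard error, and filled points for an adjusted p under 0.05. In ko, 3 rod, 4 shared and 7 synapse genes are filled and 0 cone genes are, while in wt Gngt1, Pde6b and Stx3 are filled.

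Promoter sequence was available for the genes of this cascade, and the windows from 250 bases before to 50 bases after each start site were searched on both strands for TAATCC, the core bound by the Crx and Otx2 homeodomain factors of photoreceptors. Crx itself averaged 11.68 ± 0.56 in ko P6 and 11.47 ± 0.40 in ko P2, and Otx2 12.84 ± 0.15 in ko P6 and 12.98 ± 0.10 in ko P2; neither passed the test. The 120 bases before the start site of 4 risers that hold the core are shown because they belong to the light response and its recovery, with the core in capitals, read here as GGATTA on the printed strand (RefSeq, GRCm38.p6, 5′ to 3′ toward the start). Abca4 encodes the outer segment flippase for retinal compounds.
Sag, chr1:87803560-87803679, plus strand: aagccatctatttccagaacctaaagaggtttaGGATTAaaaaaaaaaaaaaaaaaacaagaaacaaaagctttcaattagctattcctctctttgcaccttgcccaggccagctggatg
Guca1a, chr17:47400607-47400726, minus strand: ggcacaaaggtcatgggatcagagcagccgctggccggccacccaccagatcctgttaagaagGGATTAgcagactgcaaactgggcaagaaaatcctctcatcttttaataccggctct
Gngt1, chr6:3993888-3994007, plus strand: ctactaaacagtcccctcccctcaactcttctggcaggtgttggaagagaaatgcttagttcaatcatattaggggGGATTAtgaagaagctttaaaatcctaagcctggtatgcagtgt
Abca4, chr3:122044340-122044459, plus strand: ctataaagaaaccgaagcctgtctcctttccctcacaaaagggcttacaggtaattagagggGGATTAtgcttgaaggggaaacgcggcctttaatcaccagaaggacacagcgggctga
The core begins 87 bases before the start site in Sag, 57 in Guca1a, 44 in Gngt1 and 58 in Abca4. TAATCC was present in 12 of 110 windows of the risers (10.91%) and in 1 of 19 windows of the fallers, against 6.1% of 18109 windows of the genes tested. A gene can have several windows, so the windows are not independent, and a match is a description of the letters only.

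Of 13 measured genes of the outer segment and interphotoreceptor matrix, 3 rose and 0 fell, where 0.528% of all genes rose (median 0.47). Without ko P6 replicate 4, 4 of the 13 rose, where 1.4% of all genes rose. Rp1l1, a microtubule protein of the photoreceptor axoneme, had 11.90, 11.75, 11.94 and 10.94 in ko P6 and 9.56, 9.49, 9.43 and 9.19 in ko P2, a rise of 4.64-fold (limma, adjusted p = 3.76e-06). Its partner Rp1 rose 3.47-fold, with 10.69, 10.35, 10.55 and 9.14 in ko P6 against 8.77, 8.48, 8.47 and 7.83 in ko P2. All ko P6 arrays were above all ko P2 arrays in both genes, and both calls held without any single array, but that of Rp1 ended with only the 8 arrays in the fit (adjusted p = 0.0558). Cdhr1, a cadherin at the base of the discs, was already at 12.48 ± 0.08 in ko P2, and at 13.18 ± 0.16 in ko P6 (SD, n = 4 each) it had risen 1.62-fold. Prph2, the disc rim protein, was called absent at both stages. In the visual cycle, 1 of 10 measured genes rose, against 0.528% of all genes, and 2 rose without ko P6 replicate 4, against 1.4%. Abca4, the 1 called with all arrays, was at 10.16, 10.01, 10.13 and 8.64 in ko P6 and at 8.71, 8.69, 8.25 and 7.95 in ko P2. Only ko P6 replicate 4 overlapped the ko P2 arrays, and the call (2.52-fold from an absent call, adjusted p = 0.0244) ended without any 1 of 5 arrays (up to 0.151, without ko P6 replicate 3). None of 28 genes of the cilium and intraflagellar transport passed the test (median 0.27); the largest difference was that of Ift122, at 1.34 (SE 0.54).

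Of 23 measured genes of the synapse and transmitter release, 7 rose and 0 fell (median 0.69), where 0.528% of all genes rose. For 9 of the 23, every ko P6 array was above every ko P2 array, against 2.83% of all genes. Slc17a7, the vesicular glutamate transporter VGLUT1, had 9.84, 9.20, 9.72 and 7.58 in ko P6 and 7.24, 6.94, 7.07 and 6.93 in ko P2. The ko P2 arrays lay close together while ko P6 replicate 4 was only just above them, and the rise was 4.12-fold (limma, adjusted p = 0.00104). Cplx4, a complexin that regulates vesicle fusion at ribbons, had 9.68, 9.45, 9.57 and 8.26 in ko P6 and 7.39, 7.05, 7.26 and 7.50 in ko P2, a rise of 3.84-fold from an absent call. The groups were again apart in every array. Nrxn3, a presynaptic adhesion protein, rose 3.67-fold, and its dimmer probe sets did not pass the test, with differences of 1.08, 0.06, -0.07 and -0.10. Cacna1f, the pore of the photoreceptor calcium channel, rose 2.12-fold from an absent call. Syt1, the calcium sensor of release, rose 1.91-fold, Rab3a, a GTPase of synaptic vesicles, 1.89-fold, and Stx3, the ribbon synapse syntaxin, 1.77-fold. The calls of Slc17a7, Cplx4 and Stx3 held without any single array. Those of the other 4 did not, with adjusted p up to 0.0893 for Nrxn3 and 0.229 for Cacna1f (both without ko P6 replicate 1), 0.106 for Syt1 (without ko P6 replicate 1) and 0.186 for Rab3a (without ko P2 replicate 4). Snap25, a fusion protein, had means of 12.97 in ko P6 and 12.96 in ko P2. Bsn, encoding the ribbon scaffold bassoon, was called absent at both stages. Without ko P6 replicate 4, 8 of the 23 rose, where 1.4% of all genes rose. With only the 8 arrays in the fit, Cplx4 and Nrxn3 rose, where 82 of 18193 genes rose. In that fit Slc17a7 (adjusted p = 0.0749), Cacna1f (0.0817), Syt1 (0.0621), Rab3a (0.0844) and Stx3 (0.0546) lost their calls.

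Kcne2, Klf9 and Isl1 had the largest rises of all named genes. Kcne2, an accessory subunit of potassium channels, stood at 12.16, 12.23, 12.14 and 10.25 in ko P6 and at 8.38, 8.26, 8.35 and 7.89 in ko P2. That is 11.1-fold (limma, adjusted p = 1.17e-05), with no overlap, and the difference was 3.96 instead of 3.48 log2 units without ko P6 replicate 4. Klf9, a zinc finger factor that thyroid hormone induces in neurons, had 11.56, 11.38, 11.27 and 9.75 in ko P6 and 7.87, 7.80, 7.28 and 7.38 in ko P2, a rise of 10.6-fold. Of its 6 dimmer probe sets, 2 rose as well, by 2.82 and 1.80. Isl1, a LIM homeodomain factor, had 11.49, 11.43, 11.23 and 9.56 in ko P6 and 7.33, 7.46, 7.66 and 7.76 in ko P2, a rise of 10.4-fold. A second probe set of Isl1, called absent at both stages, had a difference of 0.64 (adjusted p = 0.409). All 3 calls held without any single array. Slc12a5, the neuronal potassium chloride exporter KCC2, rose 4.46-fold, while its dimmer probe set, called absent at both stages, had a difference of -0.18. With Kcne2, 2 of 15 measured genes of ion pumps, exchangers and channels rose (median 0.15), where 0.528% of all genes rose. Without ko P6 replicate 4, 3 of the 15 rose, where 1.4% of all genes rose.

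Cpt1a, which commits fatty acids to mitochondrial oxidation, had 11.51, 11.67, 11.60 and 11.24 in ko P6 and 9.64, 9.56, 9.60 and 8.33 in ko P2. Here ko P2 replicate 4 was the array apart, the rise was 4.68-fold, and both other probe sets rose. Abca1, a cholesterol exporter, rose 4.14-fold, with 8.83 to 9.95 in ko P6 and 7.25 to 7.71 in ko P2. Its 2 dimmer probe sets, called absent at both stages, had differences of 0.03 and -0.15. Ckmt1, the mitochondrial creatine kinase, rose 5.73-fold from an absent call. Its dimmer probe set, called absent at both stages, had a difference of 0.36. Ckmt1 was the 1 called gene of 24 in oxidative phosphorylation and phosphocreatine (median 0.24), where 0.528% of all genes rose. Without ko P6 replicate 4, 2 of the 24 rose, against 1.4% of all genes. Of the 24, 22 had positive differences, against 6405 of all 18193 genes. All genes are an unlike reference here, since 23 of the 24 had a present call at ko P6. The median difference was -0.07 over all genes and 0.04 over the 7740 with a present call at ko P2 or ko P6. Hk2, the hexokinase of the photoreceptor inner segment, rose 2.23-fold from an absent call. It was the 1 called gene of 19 in glycolysis and lactate (median 0.41), where 0.528% of all genes rose. Without ko P6 replicate 4, 2 of the 19 rose, against 1.4% of all genes. The call of Hk2 ended without any 1 of 5 arrays (adjusted p up to 0.116, without ko P6 replicate 1). With only the 8 arrays in the fit, the calls of Ckmt1 (0.055) and Hk2 (0.0634) ended. On the side of the fallers, Insig1, which holds back sterol synthesis, had 10.30, 10.04, 9.99 and 9.23 in ko P6 and 12.01, 12.08, 11.98 and 11.76 in ko P2, and fell by 2.07 log2 units. It was the 1 called gene of 21 in sterol and fatty acid synthesis (median -0.19), where 0.132% of all genes fell. Txnip, an arrestin-like protein that limits glucose uptake, fell by 2.18 log2 units, with 7.26, 6.80, 6.70 and 6.74 in ko P6 against 9.65, 9.60, 8.35 and 8.62 in ko P2. The calls of Insig1 and Txnip held without any single array, but the dimmer Txnip probe set, called absent at both stages, had a difference of -0.27 (adjusted p = 0.566).

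Rrm2, the subunit of ribonucleotide reductase that is made in S phase, had the largest fall, with 6.41, 5.79, 5.88 and 6.46 in ko P6 and 11.11, 11.32, 10.92 and 10.16 in ko P2. The lowest ko P2 array was far above the highest ko P6 array, and the difference was -4.75 log2 units (limma, adjusted p = 0.00108). The call rests on the brightest of 3 probe sets; the others had differences of -1.32 (adjusted p = 0.129) and -0.05. Ccnd1, the cyclin of retinal progenitors, had 9.31, 8.59, 8.50 and 8.82 in ko P6 and 11.91, 12.13, 11.64 and 11.46 in ko P2, and fell by 2.98. Its call ended without any 1 of 3 arrays (adjusted p up to 0.0716, without ko P6 replicate 3), and with only the 8 arrays in the fit its adjusted p was 0.0024. Rrm2 was the 1 called gene of 31 in cell cycle and DNA replication (median -0.45), and Ccnd1 the 1 called gene of 17 retinal progenitor genes (median -0.58), where 0.132% of all genes fell. In the cell cycle list, 21 of 31 genes had all ko P6 arrays below all ko P2 arrays, against 9.16% of all genes, and 10 genes had a present call at ko P6 against 18 at ko P2. Members that did not pass the test included Mki67 (difference -1.48) and Birc5 (-1.90). The array labelled ko 4 weeks replicate 2 bears on these calls through the spread: in Rrm2 it read 11.73 while the other ko 4 weeks arrays read 5.11 to 5.61. Without it, 5 cell cycle genes fell (Mki67, Ccna2, Rrm2, Birc5 and Nusap1) and 3 progenitor genes fell (Sox2, Ccnd1 and Foxn4), where 0.319% of all genes fell. With only the 8 arrays in the fit, 6 genes of each list fell, where 0.572% of all genes fell. The 120 bases before the start site of Rrm2 are shown with the box CCAAT, bound by the factor NF-Y, in capitals, 50 bases before the start.
Rrm2, chr12:24708134-24708253, plus strand: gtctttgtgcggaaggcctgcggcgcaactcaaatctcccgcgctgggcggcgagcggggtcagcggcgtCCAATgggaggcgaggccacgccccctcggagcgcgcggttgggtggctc
CCAAT is common: it was present in 57.89% of 19 windows of the fallers and 40.0% of 110 windows of the risers, against 37.37% of 18109 windows of the genes tested. GGCGGGA, an E2F type site, was in 10.53% of windows of the fallers, 17.27% of the risers and 16.74% of the genes tested, and TTTGAA, the cell cycle homology region, in 26.32% of the fallers, 13.64% of the risers and 13.4% of the genes tested. Matches of different motifs may share bases.

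Pbk, a mitotic kinase, fell by 2.43 log2 units and Uhrf1, which recruits maintenance DNA methylation, by 1.87. The call of Pbk ended without any 1 of 6 arrays (adjusted p up to 0.126), and that of Uhrf1 without any 1 of 7 (up to 0.175, both without ko P6 replicate 3) and with the replicate block (0.055). Dnmt3a, a methyltransferase that sets new methylation, rose 2.37-fold from an absent call, with 10.90, 10.93, 10.74 and 10.28 in ko P6 against 9.57, 9.60, 9.39 and 9.29 in ko P2. This call held without any single array, but none of the 4 dimmer Dnmt3a probe sets passed the test. Of these, 1 that was called present at both stages had a difference of -0.23 (adjusted p = 0.831). Uhrf1 and Dnmt3a were the 2 called genes of 20 in chromatin and nuclear architecture (median -0.07), where 0.66% of all genes were called. The dimmer Uhrf1 probe set, called absent at both stages, had a difference of -0.28. Rspo2, a secreted activator of Wnt signalling, had 6.25, 5.90, 6.02 and 5.99 in ko P6 and 9.59, 9.41, 8.52 and 8.22 in ko P2. It was called absent at ko P6, and the level was 7.45-fold lower there (adjusted p = 7.56e-05). The dimmer Rspo2 probe set, called absent at both stages, had a difference of -0.13. Among the smaller falls, Dapl1 was 3.18-fold and Fgf14, a regulator of sodium channels, 2.23-fold lower in ko P6, where both were called absent. The call of Dapl1 ended without any 1 of 3 arrays (adjusted p up to 0.0749, without ko P2 replicate 2); Fgf14 kept its call, but its 3 dimmer probe sets did not pass the test.

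Of 19 measured regulators of photoreceptor fate 0 rose and 0 fell (median -0.06), where 0.66% of all genes were called. At that share, 0 calls in a list of this size, here or below, does not set the list apart from all genes. Rxrg, a retinoid receptor of immature cones, was called absent at both stages, with a difference of -0.06 (SE 0.17). Mef2d, a cofactor of Crx, had the largest difference, 0.88 (SE 0.39, adjusted p = 0.439), with no overlap between groups. Of 21 genes of the Notch pathway and proneural factors 0 were called (median -0.22), and 8 had all ko P6 arrays below all ko P2 arrays, against 9.16% of all genes. Hes5, a Notch target of progenitors, lay at 9.27, 9.23, 9.15 and 8.84 in ko P6 and at 10.80, 10.94, 10.52 and 9.83 in ko P2, a difference of -1.40 (SE 0.44, adjusted p = 0.191). Egr1, an immediate-early gene, lay at 11.95, 11.78, 11.90 and 11.57 in ko P6 and at 10.47, 10.30, 10.04 and 9.95 in ko P2 without a call (difference 1.61, adjusted p = 0.0707), and 0 of 17 immediate-early genes were called (median -0.14). No gene was called among 20 of the immature neuronal cytoskeleton (median -0.12), 12 of apoptosis (median -0.05), 13 of Stat3 signalling (median 0.01) or 16 of the circadian clock (median -0.03). Of 29 genes of axon guidance and adhesion, 1 rose (median -0.09), where 0.528% of all genes rose. This was the adhesion protein Nrcam, 3.16-fold. Its call ended without any 1 of 4 arrays (adjusted p up to 0.126, without ko P6 replicate 3).

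Of 13 bipolar cell markers, Isl1, Pcp2 and Prkca rose and 0 fell, where 0.528% of all genes rose (median -0.05). Pcp2, a modulator of G protein signalling, had 11.46, 10.59, 10.80 and 9.37 in ko P6 and 8.84, 8.65, 8.20 and 7.41 in ko P2, a rise of 4.86-fold; its 2 dimmer probe sets had differences of 1.03 and 1.55 and did not pass the test, and its call ended with only the 8 arrays in the fit (adjusted p = 0.0605). Prkca, the kinase that marks rod bipolar cells, had 8.70, 8.18, 8.45 and 7.29 in ko P6 and 6.51, 6.50, 6.56 and 6.54 in ko P2, a rise of 3.09-fold on 1 of 3 probe sets. The markers Trpm1, Cabp5, Nyx, Gpr179, Vsx1 and Bhlhe23 were called absent at both stages, with means of 5.58 to 7.90 in ko P6 and 5.78 to 7.90 in ko P2. The log2 of the summed bipolar signals ran from 13.17 to 13.93 over the ko P6 arrays and from 13.18 to 13.37 over the ko P2 arrays, a sum to which Otx2, also made by photoreceptors, contributed at 12.84 in ko P6 and 12.98 in ko P2. The mean over the 13 markers did not overlap between the groups, at 7.82 to 8.27 over ko P6 and 7.48 to 7.59 over ko P2. That mean includes the called genes Isl1, Pcp2 and Prkca, and 6 of the 13 markers had positive differences. The part of bipolar cells in the rises of Isl1, Pcp2 and Prkca was not tested. Among 14 Müller glia and astrocyte markers, 1 rose and 1 fell, where 0.66% of all genes were called. Clu, encoding clusterin, rose 3.59-fold from an absent call with 2 further probe sets, and Glul, encoding glutamine synthetase, fell by 0.74 log2 units. The call of Clu ended without any 1 of 5 arrays (adjusted p up to 0.102, without ko P6 replicate 1) and that of Glul without ko P6 replicate 3 (0.06). The log2 sum of that list ran from 12.59 to 13.07 over ko P6 and from 12.86 to 13.10 over ko P2. Of 12 microglia markers 0 were called with all arrays. Without ko P6 replicate 4, 1 rose, C1qb (difference 1.77, adjusted p = 0.00746), where 1.4% of all genes rose. Cx3cr1, Aif1, Csf1r and C1qa were called absent at both stages. The log2 sum of the microglia list ran from 10.61 to 11.28 over ko P6 and from 10.40 to 10.56 over ko P2, without overlap, and its mean from 6.65 to 6.87 over ko P6 and from 6.55 to 6.64 over ko P2. The median difference of these 12 markers was -0.07 and 5 were positive. Of 13 ganglion cell markers Isl1 was the 1 called, where 0.66% of all genes were called. Pou4f1, a ganglion cell factor, had means of 8.90 in ko P6 and 9.15 in ko P2. The log2 sum ran from 11.52 to 12.17 over ko P6 and from 10.98 to 11.19 over ko P2, without overlap. The mean ran from 7.08 to 7.21 over ko P6 and from 6.85 to 6.96 over ko P2, also without overlap. Isl1 is part of the sum and the mean, while the median difference of the 13 markers was -0.07 and 5 were positive. The part of ganglion cells and microglia in the results was not tested. The amacrine and horizontal, vessel, lens and red blood cell lists had 0 calls. The pigment epithelium list had 1 call among 12 genes, where 0.66% of all genes were called. This was Tyrp1, which rose 1.52-fold from an absent call. A dimmer Tyrp1 probe set rose by 1.16, and the call of Tyrp1 ended without any 1 of 2 arrays (adjusted p up to 0.0787).

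The same step was compared in wt cells, in which the GFP-positive photoreceptors become rods. The wt differences came from other arrays than the ko differences. Both steps were tested in the same fit, however, with the same estimate of spread for each gene. The calls in ko and wt, and the overlap between them, are therefore not independent. When ko P6 replicate 4 was left out of the fit, 37 genes passed the test between wt P6 and wt P2. With all arrays, 27 passed (0.148%), 25 of them higher (0.137%) and 2 lower (0.011%). Of these, 13 were also called in ko, which is 10.83% of the ko calls and 48.15% of the wt calls, and all 13 rose in both: Abca1, Amph, Cpt1a, Gngt1, Herc3, Isl1, Klf9, Rp1, Rp1l1, Stx3, Tmem237, Wdr17 and Ybx3. In Isl1 the difference was 3.37 in ko and 2.88 in wt, and in Klf9 it was 3.41 in ko and 2.70 in wt. Of the 96 ko risers, 87 had a positive difference in wt, against 41.16% of all genes, with a median of 1.41 in ko and 0.61 in wt. Of the 24 ko fallers, 20 had a negative difference in wt, against 58.81% of all genes, with a median of -0.95 in ko and -0.27 in wt. These genes were chosen by their change in ko, and that choice alone can make the ko medians larger. The medians therefore do not show a larger change in ko.

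**Figure D3:**
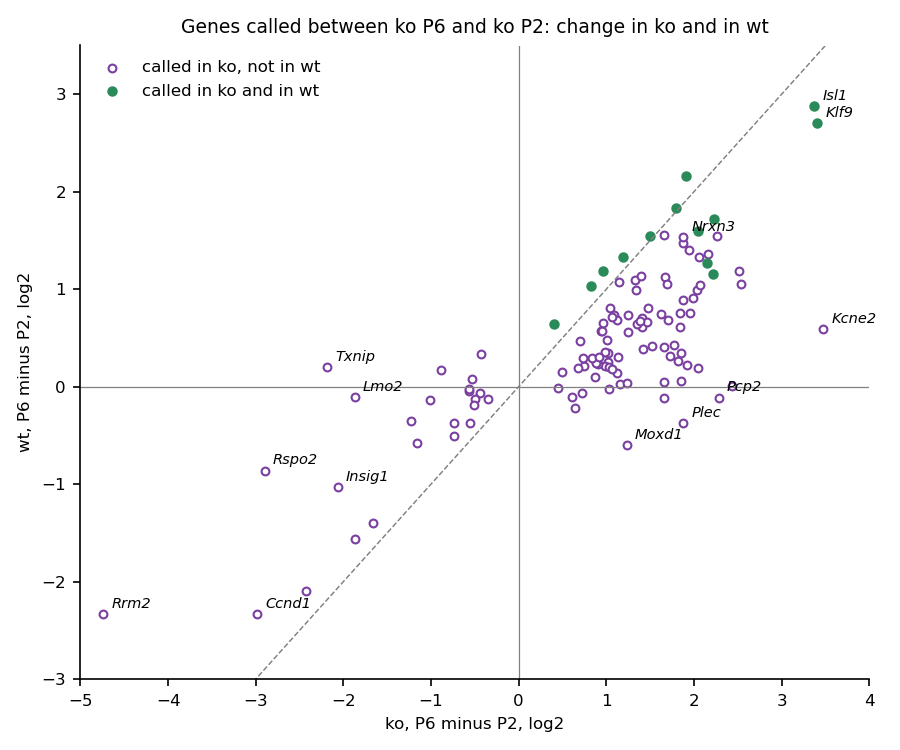
The 120 genes called between ko P6 and ko P2 are placed by their P6 minus P2 difference (log2) in ko on the horizontal axis and in wt on the vertical axis, with filled points for the 13 genes also called in wt and a dashed line where both are equal. Klf9 and Isl1 lie at the upper right, whereas Lmo2 and Moxd1 lie near or across the zero line of wt.

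Where the difference between genotypes was itself tested, as the ko change minus the wt change, 3 genes passed (0.0165%), 1 with a more negative change in ko (Lmo2, 0.0055%) and 2 with a more positive one (Moxd1 and Ece1, 0.011%). Lmo2, a LIM-domain cofactor, had 7.87, 8.08, 7.96 and 7.68 in ko P6 and 10.03, 9.90, 9.77 and 9.39 in ko P2. In wt P6 it had 8.23, 7.85, 8.12 and 7.96, against 8.80, 7.83, 7.99 and 7.97 in wt P2, so that ko P2 was the group apart. The difference between the changes was -1.76 (SE 0.25, limma, adjusted p = 0.00142), and it passed the test in all 16 fits that left out 1 P2 or P6 array (adjusted p up to 0.00806). Moxd1, a copper-dependent monooxygenase, had 10.62, 10.84, 10.60 and 10.26 in ko P6 and 9.51, 9.48, 9.64 and 8.77 in ko P2. Its wt means were 7.26 at P6 and 7.86 at P2, and the changes differed by 1.83 (SE 0.32, adjusted p = 0.0152). Ece1, the protease that makes endothelins, averaged 11.42 ± 0.48 in ko P6 and 10.75 ± 0.39 in ko P2, and 9.43 ± 0.52 in wt P6 and 10.61 ± 0.19 in wt P2 (SD, n = 4 each). It fell in wt (difference -1.19, adjusted p = 0.017) and was not called in ko (0.67, adjusted p = 0.256), and the changes differed by 1.86 (adjusted p = 0.0152). Moxd1 and Ece1 each passed in 9 of the 16 fits that left out 1 array, with adjusted p up to 0.0772 for Moxd1 and 0.0784 for Ece1. With only the 16 P2 and P6 arrays in the fit, both calls ended (0.147 for Moxd1 and 0.24 for Ece1), and Lmo2 kept its call (0.0298). Without ko P6 replicate 4, 16 genes passed, among them Kcne2 (3.37), Guca1a (2.99), Pcp2 (2.79), Plec (2.74) and Slc17a7 (2.35), each with a larger change in ko; with all arrays these 5 did not pass. Pde6b, which Nrl activates in rods, rose in wt by 2.19 and had a difference of 0.01 in ko; the changes differed by -2.17 (adjusted p = 0.0718).

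Seen over all 5 stages, the genes that changed at this step had several shapes in ko; these values share the P2 and P6 arrays with the comparison above and are given as levels. Gngt1 averaged 9.80, 9.61, 11.76, 12.73 and 13.04 at E16, P2, P6, P10 and 4 weeks, and Kcne2 averaged 7.05, 8.22, 11.70, 12.75 and 12.64. Guca1a, at 6.41, 6.67, 9.10, 12.11 and 12.57, had most of its climb after P2. Isl1 had a low point at P2, with 9.75, 7.55, 10.93, 12.10 and 9.48. Pcp2, at 7.88, 8.27, 10.56, 9.51 and 7.83, and Moxd1, at 6.42, 9.35, 10.58, 9.76 and 8.04, were highest at P6. Lmo2 was high at P2 alone, with 7.67, 9.77, 7.90, 7.68 and 7.77. Opn1sw, which did not pass the test here, averaged 8.78, 11.51, 12.45, 13.12 and 13.09.

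**Figure D4:**
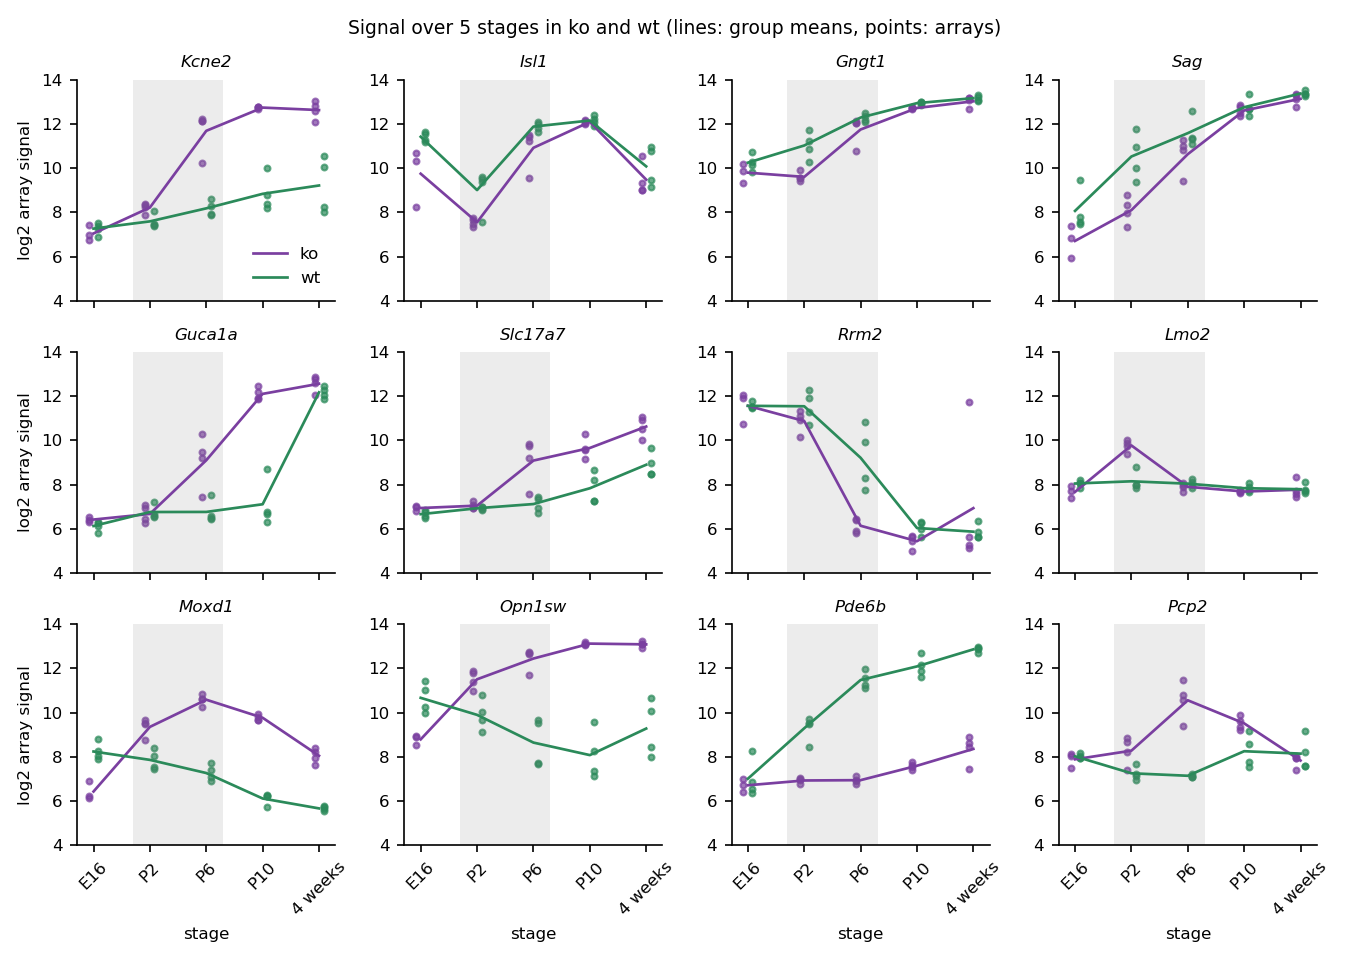
Each panel shows the log2 array signal of 1 gene at E16, P2, P6, P10 and 4 weeks, with points for arrays, lines joining group means, ko in purple and wt in green, and the P2 to P6 step shaded. Lmo2 stands out at P2 in ko, Isl1 has its low point at P2 in ko and wt, and Rrm2 averages 6.13 in ko P6 and 9.21 in wt P6.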

How the data were processed

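GFP-positive photoreceptors sorted from ko and wt mice were measured on 39 arrays in 10 groups, and the samples were grouped by their titles. The log2 values used were those the authors deposited in the series' value table, made with RMA per the submitters' processing notes; they are already background-corrected and normalized. Detection calls (present or absent), a measure of another kind, were also deposited by the authors, 1 per group; how arrays were combined into a call is not given in the sources used here, and 2 columns of adult calls were not used. Values ran from 4.03 to 14.48. Precision is set by how many arrays a group holds.

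Of 45101 probe sets, 34945 had 1 gene, 932 had several, 9160 had none and 64 were controls; 34741 were matched to RefSeq by Entrez ID. Each gene was represented by its brightest probe set over all arrays, giving 18193 genes. limma 3.58.1 in R 4.3.3 fitted 10 group means to the 39 arrays (29 residual degrees of freedom), with Benjamini-Hochberg adjustment over all genes and a threshold of 0.05. All adjusted p-values are limma's. The procedure was tested on simulated data. A fold is the point estimate from the difference of group means, and "from an absent call" marks a rise whose dimmer group was called absent. The labels do not say that arrays came from separate animals, so p-values measure the spread between arrays only, which may be technical.

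Genes were named by a rule: the 20 largest rises and falls among called genes that were also called without ko P6 replicate 4 and did not overlap, up to 4 called members per list or the 2 largest where none was called, a fixed set of photoreceptor genes, and the 10 smallest p-values of the genotype difference. Genes outside that rule, such as Aipl1, Mki67, Birc5, Sox2, Snap25, Rab3a, Stx3, Syt1 and the absent markers of other cells, were named after their values were seen. The genes, lists and tests were chosen with earlier results of these data known. Same-numbered ko arrays had residual correlations of 0.79, 0.31, 0.13 and 0.84 for replicates 1 to 4, all above 0.1, and same-numbered wt arrays -0.17, 0.56, 0.30 and 0.47. A fit with the replicate number as a block was therefore run beside the unblocked one. Differently numbered arrays were not compared in this way, so the check cannot show that the numbers mark pairs. The pairing comes from the numbers in the titles. Other alternatives changed the arrays, the scaling, the filter on dim genes, the probe set rule and the array weights, and 2 were chosen after seeing the data: leaving out replicate 4 of both groups, and leaving out ko 4 weeks replicate 2. Promoter windows were RefSeq's, on GRCm38.p6.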

Additional observations from a re-analysis of the deposited data

Results flagged for a closer look

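In 28 instances over 26 genes, 1 of the 4 arrays of a group lay far from the other 3 by Dixon's test at its 95% critical value, out of 186 groups of 4 examined; chance alone marks about 1 in 20 such groups. In 19 of them the array was ko P6 replicate 4 and it was the lowest of its group. These were the risers Kcne2 (10.25), Klf9 (9.75), Isl1 (9.56), Slc12a5 (9.17), Gngt1 (10.76), Ankrd33 (9.80), Cplx4 (8.26), Smug1 (10.01), Abca4 (8.64), Nrcam (8.07), Clu (7.86) and Plec (8.14), and the genes without a call Opn1sw (11.68), Sall3 (6.09), Lifr (8.94), Crx (10.84), Pde6c (10.14), Rxrg (7.78) and Socs3 (9.10). The same array was the highest of its group in the lens gene Crygd (7.01). ko P2 replicate 4 was the lowest of its group in Rcvrn (6.54), Cpt1a (8.33), Smug1 (8.66), Gnat2 (10.23), Hes6 (10.46) and Pde6c (10.50). The remaining instances were ko P6 replicate 1, highest in Txnip (7.26), and ko P2 replicate 1, lowest in Opn1mw (6.02), a gene called absent.

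The change between P6 and P2 differed between ko and wt, by the test of the difference, in Lmo2 (-1.76), Moxd1 (1.83) and Ece1 (1.86).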

How the results depend on the processing

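The counts of called genes moved with the processing more than the directions did. Against 96 higher and 24 lower genes in ko P6, quantile normalization gave 259 and 95, median and MAD scaling 229 and 43, and array weights 1945 and 4056. Leaving out the 5 arrays of lowest spread with ko 4 weeks replicate 2 gave 471 and 149. Leaving out ko 4 weeks replicate 2 alone, a choice made after seeing the data, gave 117 and 58; leaving out replicate 4 of both groups, also chosen then, gave 138 and 20. With only the 8 arrays in the fit, 82 were higher and 104 lower. With the replicate number as a block, 125 were higher and 27 lower over all arrays, and 1572 and 1415 within the 8 arrays. Leaving out 1 array of ko P6 or ko P2 gave 45 to 255 higher and 9 to 25 lower genes. The block ended the calls of Pdc and Uhrf1 among the 53 named called genes and of none of the others. In wt, 27 calls became 76 with only the 16 P2 and P6 arrays, 65 with quantile normalization, 10 with the mean of all probe sets, 665 with array weights and 41 without ko 4 weeks replicate 2, and 12 to 28 when 1 wt array was left out. Against 3 genes with a genotype difference, 6 were called with only the 16 arrays (1 higher and 5 lower, of the 3 only Lmo2), 6 with the replicate block, 11 with quantile normalization, 9 with MAD scaling, 363 with array weights, 13 without replicate 4 of both groups, and 1 to 16 when 1 array was left out. Of the 53 named called genes 0 changed direction under any alternative; 21 lost their call with only the 8 arrays, 8 with the mean of all probe sets, 4 with MAD scaling, 4 with all probe sets tested, 1 with the filter on present calls (in which, as with dim genes left out, some genes were not tested), and 1 to 19 when 1 ko array was left out. Among the 40 named genes without a call, the difference of Opn1mw turned to 0.0064 with quantile normalization and 0.0126 with MAD scaling; that of Rxrg to 0.0965 without ko P6 replicate 4 and 0.0422 without replicate 4 of both groups and without the 5 arrays of lowest spread (leaving out 1 array, -0.1259 to 0.0965); and that of Pde6b to -0.0381 without ko P2 replicate 3 and -0.0509 without ko P6 replicate 3 (up to 0.0762 leaving out 1 array, and 0.1101 without the 5 arrays of lowest spread). The 3′ minus 5′ difference was -0.0774 for Actb and -0.0506 for Gapdh. The cause of these shifts was not tested.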

Other observations

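Some genes outside the lists also rose at this step; they were named after their values were seen. Mpp3, a scaffold protein of photoreceptor junctions, had 9.62, 9.51, 10.12 and 8.28 in ko P6 and 7.85, 7.77, 7.63 and 7.63 in ko P2, a rise of 3.16-fold (limma, adjusted p = 0.00264), and its difference in wt was 0.05. Zbtb20, a zinc finger factor, rose 2.10-fold, with 10.70 to 10.93 in ko P6 and 9.54 to 10.05 in ko P2. Slc7a5, a transporter of large neutral amino acids, rose 2.04-fold from an absent call. Tmem237, a protein of the ciliary transition zone, rose 2.28-fold. All 4 calls held without any single array, and those of Mpp3 (0.0621) and Tmem237 (0.0527) ended with only the 8 arrays in the fit.

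Tub, whose loss causes photoreceptor degeneration in the mouse, rose 3.23-fold, and the microtubule-associated Map2 rose 3.25-fold and Map9 2.78-fold. Asns, which makes asparagine, rose 3.59-fold. These 4 calls ended without any 1 of 3 to 5 arrays (limma, adjusted p up to 0.118 for Map2, without ko P6 replicate 1). Ctss, a lysosomal protease abundant in microglia, had 9.44, 9.34, 8.59 and 7.43 in ko P6 and 7.01, 7.12, 6.80 and 6.79 in ko P2, a rise of 3.42-fold, while the log2 sum of the 12 microglia markers ran from 10.61 to 11.28 over ko P6 and from 10.40 to 10.56 over ko P2. The call of Ctss ended without any 1 of 3 arrays (adjusted p up to 0.102, without ko P6 replicate 1), and the part of microglia in it was not tested.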
